A study of Mus musculus with 16 samples.

Results

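The genes described here make up the hypoxia response and glycolysis of mouse lung fibroblasts, as measured on single-colour Agilent arrays. They are 37 genes chosen by symbol, and every non-control probe that carried one of those names was taken. This gave 62 probes of 55681, and 37 of the 34650 gene names on the array. The genes were read as separate lists of 22 genes of glycolysis and glucose supply (41 probes) and 15 other targets and regulators of hypoxia-inducible factor (HIF; 21 probes). The rule uses no measured value.

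Glycolysis splits glucose into pyruvate, and cells short of oxygen reduce the pyruvate to lactate and export it. HIF is a transcription factor whose alpha subunit is hydroxylated by oxygen-dependent prolyl hydroxylases and then degraded, so that it accumulates when oxygen is low. It binds a short core sequence near its targets, which include most glycolytic enzymes, glucose and lactate transporters, the hydroxylases themselves and factors that act on vessels, acidity and mitochondria. Lysyl oxidases, the enzymes targeted by the siRNAs, crosslink collagen and elastin, and Lox and Loxl2 are themselves known targets of HIF.

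The cells were primary fibroblasts of mouse lung that had gone through at least 3 passages, and they were harvested 48 hours after siRNA transfection. The groups were siLox (siRNA against Lox), siLoxL1 (against Loxl1), siLoxL2 (against Loxl2) and scr (scrambled siRNA), with 4 arrays each. The title of the series speaks of exogenous expression of these genes, whereas the sample labels name siRNAs, and the labels were followed. The labels give no animal, culture or day for the replicates, so the p-values reflect the spread between these arrays alone, and that spread may be technical. siLox and scr were hybridised on slide 1, siLoxL1 and siLoxL2 on slide 2, and each group filled 1 row of its slide. The slides were scanned on different days, so the slide and the scan day cannot be told apart either. Replicates 1 to 4 lay in columns 1 to 4. Within a slide the siRNA and the row cannot be told apart, nor can the replicate number and the column. Levels are log2 processed signals minus the 75th percentile of the array, so that a level of 0 is that percentile and a difference of 1 is a doubling. Levels of different probes cannot be set against each other, and in RNA of whole cultures fewer cells of a type and less RNA per cell cannot be told apart.

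The slides differed before any gene was considered. Between 49.2% and 52.3% of spots were well above background on slide 1 and between 60.4% and 63.1% on slide 2, and 0 spots were saturated. The median SD within groups was 0.163 on slide 1 and 0.0968 on slide 2, and the first principal component, with 70.7% of the variance, separated the slides. All 10 fibroblast markers, collagen and decorin genes among them, were well above background on all arrays. So were all 13 measured leukocyte and macrophage markers and all 7 mesothelial markers. Of 9 measured pericyte and smooth muscle markers, 9 were so on all arrays of scr and of siLox, and 8 in each group of slide 2. Of 8 measured endothelial markers it was 7 in scr, 6 in siLox, 6 in siLoxL1 and 7 in siLoxL2. Of 10 epithelial markers 4 were measured, namely Krt8, Krt18, Krt19 and Scgb1a1. Of these, 3 were well above background on all scr arrays, 3 on all siLox arrays, and 4 on all arrays of slide 2. Epcam, Cdh1, Sftpc and Nkx2-1 were not well above background on all arrays of any group, and Sftpb and Sftpa1 were not measured either. Of the targeted genes, Lox lay at 0.39, 0.89, 1.25 and 2.04 on siLox arrays, against 4.16, 4.08, 4.15 and 3.88 on scr arrays, a log2 difference of -2.92 (adjusted p = 0.00319). Loxl1 lay at 4.54 to 4.72 on siLoxL1 arrays, below 5.65 to 5.80 on siLoxL2 arrays (-1.15 ± 0.06, adjusted p = 0.000215) and 5.35 to 5.79 on scr arrays. Loxl2 set its label apart less well: it lay at 5.25 to 5.58 on siLoxL2 arrays, against 5.59 to 5.81 on siLoxL1 arrays without passing the test (adjusted p = 0.055), and at 6.09 to 6.80 on scr arrays on the other slide. It was also lower in siLox than in scr (-0.71 ± 0.17), as was Loxl1 (-0.49 ± 0.13).

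Of the 37 genes, 36 were tested, and all 36 were well above background on all 16 arrays. The remaining one, Mxi1, which encodes an antagonist of Myc, was not well above background on all 4 arrays of any group and was not tested. The tests were limma fits over 22573 genes with Benjamini-Hochberg adjustment and a threshold of 0.05. siLox against scr and siLoxL1 against siLoxL2 were each fitted on the 8 arrays of their slide. siLoxL1 and siLoxL2 were also set against scr in a fit of all 16 arrays, where the siRNA and the slide cannot be told apart.

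Between siLox and scr, most genes of both lists were not called. Of 22 glycolysis genes, 1 was higher and 4 were lower in siLox than in scr, or 22.7%, against 25.0% of all genes tested. Of 14 other HIF genes, 2 were higher and 3 were lower, or 35.7%. The median log2 difference was -0.16 for glycolysis and -0.24 for the other HIF genes, beside -0.05 over all genes. The groups did not overlap for 4 glycolysis genes and 6 other HIF genes, against 30.6% of all genes.

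Taken over each list, the arrays of the groups overlapped. The mean level of the 22 glycolysis genes was 4.29, 4.41, 4.38 and 4.52 on siLox replicates 1 to 4, against 4.63, 4.60, 4.54 and 4.44 on scr replicates 1 to 4. For the 14 other HIF genes it was 2.25, 2.35, 2.37 and 2.49 on siLox arrays and 2.58, 2.49, 2.48 and 2.35 on scr arrays. In both lists replicate 4 of siLox was the highest of its group and lay above replicate 4 of scr, the lowest of its group. Replicate 4 of siLox was also the siLox array with the most Lox.

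**Figure D1:**
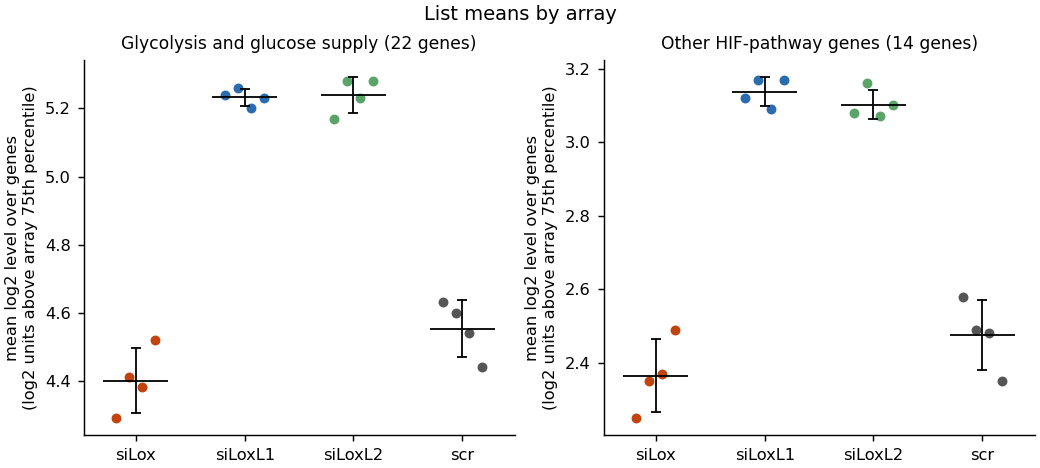
Mean log2 level over the tested genes of each list above the array's 75th percentile, with 1 point per array in replicate order, the mean as a line and the SD as a bar. The siLox arrays (4.29 to 4.52 for glycolysis) overlap the scr arrays (4.44 to 4.63), and the arrays of siLoxL1 (5.20 to 5.26) and siLoxL2 (5.17 to 5.28), which are on the other slide, lie above both.

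The glycolysis gene that rose was Eno2, the neuronal form of enolase, which makes phosphoenolpyruvate (probe at chr6:124710388-124710447, build mm9). Its level was 3.30, 3.13, 3.20 and 2.82 on siLox arrays, against 0.76, 2.25, 1.84 and 2.54 on scr arrays. Every siLox array lay above every scr array, and scr replicate 1 lay far below the other scr arrays. The log2 difference was 1.27 ± 0.36 (SE), or 2.41-fold, with an adjusted p of 0.0395. Eno1, the enolase that most cells use, was at 7.51, 7.74, 7.74 and 7.71 on siLox arrays and at 7.87, 7.84, 7.81 and 7.71 on scr arrays, and did not pass (-0.13 ± 0.07).

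The glycolysis genes that fell were Pfkm, Pfkfb4, Pdk1 and Aldoa. Pfkm, the muscle-type subunit of phosphofructokinase (probe at chr15:97962713-97962772, mm9), lay at 1.03, 1.16, 1.14 and 1.39 on siLox arrays, against 2.18, 1.87, 1.88 and 1.57 on scr arrays. The groups did not overlap, and the log2 difference was -0.70 ± 0.14 (adjusted p = 0.0154). The other phosphofructokinase subunits did not pass, with -0.13 ± 0.16 for the liver-type Pfkl and -0.27 ± 0.13 for the platelet-type Pfkp.

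Pfkfb4 makes and degrades fructose bisphosphate that activates phosphofructokinase. Its probe is at chr9:108934652-108934711 (mm9). It lay at -0.48, -0.41, -0.37 and -0.25 on siLox arrays, against 0.42, 0.04, 0.18 and 0.06 on scr arrays, without overlap (-0.55 ± 0.10, adjusted p = 0.0125). Its relative Pfkfb3 differed by 0.07 ± 0.06 and did not pass.

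Pdk1, the kinase that shuts pyruvate out of the mitochondrial pyruvate dehydrogenase, lay at -0.01, 0.22, 0.11 and 0.58 on siLox arrays, against 1.24, 0.84, 0.92 and 0.51 on scr arrays. Replicate 4 of siLox lay above replicate 4 of scr, and the other arrays did not overlap (-0.65 ± 0.18, adjusted p = 0.0363). Aldoa, the main aldolase, which cleaves the fructose bisphosphate of glycolysis, lay at 8.47, 8.58, 8.59 and 8.69 on siLox arrays and at 8.94, 8.95, 8.75 and 8.74 on scr arrays. These groups did not overlap either (-0.26 ± 0.08, adjusted p = 0.0463), but the call was absent after quantile normalization.

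The transporters did not pass. Slc2a1, the basal glucose transporter, was at 4.41, 4.51, 4.58 and 4.79 on siLox arrays and at 5.04, 4.88, 5.02 and 4.58 on scr arrays. Only scr replicate 4 fell within the siLox range, and the log2 difference was -0.31 ± 0.13 (adjusted p = 0.106). Slc16a3, which exports lactate, differed by -0.44 ± 0.15 (adjusted p = 0.0601) and Slc2a3, a high-affinity glucose transporter, by 0.19 ± 0.11 (adjusted p = 0.225).

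The remaining enzymes between glucose and lactate had log2 differences between -0.39 for Aldoc and 0.03 for Hk2, and none passed by the gene's brightest probe. They include Gapdh (-0.05), Ldha (-0.18), Pgk1 (-0.15), Tpi1 (-0.16), Pgam1 (-0.21), Gpi1 (-0.11) and Pkm (-0.13), the last listed under its older name Pkm2. The probes of Hk1, the housekeeping hexokinase, disagreed: of 3 probes 2 were called lower, and their log2 differences spanned -0.86 to -0.06.

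**Figure D2:**
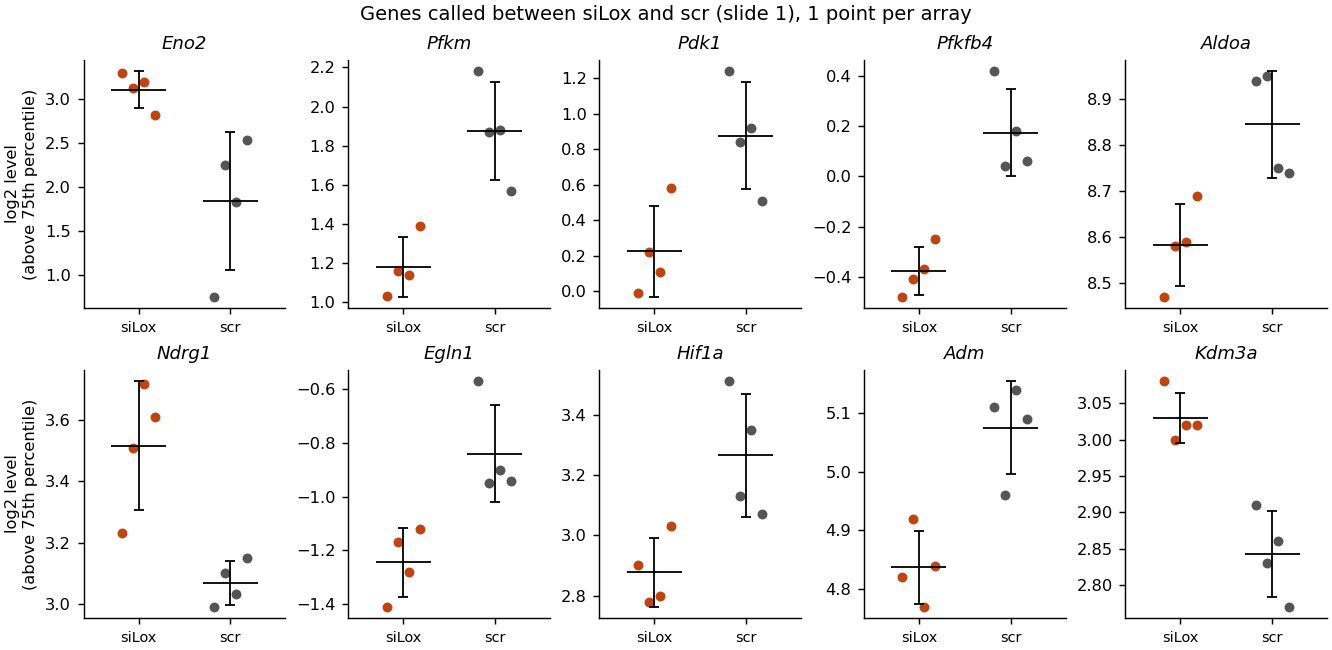
Log2 level above the array's 75th percentile, of the 10 genes called between siLox and scr, with 1 point per array in replicate order, the mean as a line and the SD as a bar. Each panel has its own vertical scale. In Eno2, Ndrg1 and Kdm3a the siLox arrays lie above the scr arrays, in the other 7 genes the siLox means lie below, and only Pdk1 has overlapping arrays.

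Among the other HIF genes, the subunit Hif1a itself was lower. Its probe is at chr12:75047269-75047329 (mm9), and its level was 2.90, 2.78, 2.80 and 3.03 on siLox arrays, against 3.51, 3.13, 3.35 and 3.07 on scr arrays. The groups did not overlap, though siLox replicate 4 lay next to scr replicate 4, and the log2 difference was -0.39 ± 0.11 (adjusted p = 0.0412). Its other probe gave -0.20 and was not called, and the mean of both probes was not called.

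Egln1, the main oxygen-sensing prolyl hydroxylase, lay at -1.41, -1.17, -1.28 and -1.12 on siLox arrays, against -0.57, -0.95, -0.90 and -0.94 on scr arrays, without overlap (-0.40 ± 0.11, adjusted p = 0.0339). Egln3, the hydroxylase most strongly induced by low oxygen in many cells, lay on the other side of 0, with a log2 difference of 0.33 ± 0.11 (adjusted p = 0.0647). Of its 2 probes the less bright one was called higher. Adm encodes adrenomedullin, a peptide that widens vessels. It lay at 4.82, 4.92, 4.77 and 4.84 on siLox arrays and at 5.11, 4.96, 5.14 and 5.09 on scr arrays, without overlap (-0.24 ± 0.06, adjusted p = 0.033), and was not called after quantile normalization.

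Ndrg1 and Kdm3a rose. Ndrg1, a stress-responsive gene linked to cell differentiation, lay at 3.23, 3.51, 3.72 and 3.61 on siLox arrays, against 2.99, 3.10, 3.03 and 3.15 on scr arrays (0.45 ± 0.11, adjusted p = 0.0247). Kdm3a, a histone demethylase, lay at 3.08, 3.00, 3.02 and 3.02 on siLox arrays, against 2.91, 2.83, 2.86 and 2.77 on scr arrays (0.19 ± 0.05, adjusted p = 0.0433). Neither overlapped, and neither was called after normexp background correction.

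Vegfa, the vascular endothelial growth factor, did not pass. It lay at 3.82, 3.83, 3.85 and 4.02 on siLox arrays and at 4.06, 3.87, 3.88 and 3.63 on scr arrays, with a log2 difference of 0.02 ± 0.10 (95% interval -0.21 to 0.25). The highest and the lowest arrays were both scr arrays. The sign turned to -0.10 without replicate 4 of both groups. The other genes, Bnip3, Higd1a, Car9, Car12, Ankrd37, Ero1l and Ddit4, had log2 differences between -0.40 and 0.31 and did not pass.

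The calls changed when single arrays were left out. Of the 10 called genes, 5 remained called without scr replicate 1, 3 without scr replicate 2, 2 without scr replicate 3 and 9 without scr replicate 4. Likewise 3, 2, 2 and 7 remained without siLox replicates 1, 2, 3 and 4. The count over all genes, 5653 with every array, also moved when single arrays were left out, and its range is given at the end. That count mixes calls gained with calls lost, so whether the losses are particular to these genes was not tested. Pfkm and Pfkfb4 were called in each of these 8 fits. Of these fits, Eno2 was called only in those without scr replicate 1 or scr replicate 4, and its log2 difference was 0.90 without the low scr replicate 1 and at least 1.20 without any other single array. Without replicate 4 of both groups, 8 of the 10 remained and 12 further genes were called, which gave 11 glycolysis genes (1 higher, 10 lower) and 9 other HIF genes (2 higher, 7 lower), beside 34.5% of all genes. The genes added were Aldoc, Pfkl, Pfkp, Pgam1, Slc2a1, Slc16a3, Ankrd37, Bnip3, Car12, Egln3, Ero1l and Higd1a. The arrays left out there are the ones whose list means crossed between the groups. The gain in calls was therefore favoured by the choice of arrays and is no support for a difference.

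Related pathways were read from lists of genes that are not members, and their shares stand beside the 25.0% of all genes called. Among 24 tested genes of HIF regulation and further HIF targets, 4 were higher and 3 lower in siLox (29.2%). They were led by Hmox1, which degrades haem (0.77 ± 0.23), Siah2, a ubiquitin ligase for the hydroxylases (0.63 ± 0.09), and Stc2, a secreted glycoprotein (-0.51 ± 0.15). Arnt, the constant partner of Hif1a, differed by 0.00 ± 0.05 and Vhl, the ligase subunit that recognises hydroxylated HIF, by 0.03 ± 0.06.

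Of 12 other isozymes and lactate shuttle genes, 6 were called (50%), all lower. Ldhb, the heart-type lactate dehydrogenase, had the largest difference (-1.03 ± 0.17), before Pfkfb1 (-0.50 ± 0.13) and Eno3, the muscle enolase (-0.46 ± 0.08). Of 12 genes of pyruvate dehydrogenase and its regulators, 2 were higher and 4 lower (50%), among them the kinases Pdk2 (-0.80 ± 0.23) and Pdk3 (-0.43 ± 0.11) and the phosphatase Pdp1 (0.36 ± 0.10). Of 19 genes of the tricarboxylic acid cycle, 4 were called (21.1%), all lower, with Idh2 (-0.44 ± 0.10), Ogdh (-0.38 ± 0.09) and Mdh1 (-0.29 ± 0.07).

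In the pentose phosphate pathway, which branches off glucose phosphate to make NADPH and ribose, 1 of 8 genes was higher and 3 were lower (50%). Taldo1, transaldolase, was higher by 1.39 ± 0.11 (adjusted p = 0.00122), while the dehydrogenases H6pd and G6pdx were lower, by -0.52 ± 0.13 and -0.42 ± 0.08. Of 11 genes of glycogen metabolism 1 was higher and 4 were lower (45.5%), led by Gyg, the primer of glycogen (-0.67 ± 0.13).

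Cell type markers were read in the same comparison beside the 25.0% of all genes called. Of 7 mesothelial markers 5 were lower and 1 was higher in siLox (85.7%). Their mean level was 0.53 to 0.61 on siLox arrays and 0.76 to 0.89 on scr arrays. Of 9 pericyte and smooth muscle markers 4 were lower and 1 higher (55.6%), with mean levels of 2.94 to 3.35 on siLox arrays and 3.34 to 3.80 on scr arrays. Of 13 leukocyte markers 1 was called (7.69%), the macrophage receptor Marco, which was higher. The mean level of the leukocyte list was 0.04 to 0.34 on siLox arrays and -0.74 to 0.23 on scr arrays. Of 10 fibroblast markers 4 were called (40%), all lower. The part of cell composition in the results above was not tested.

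Between siLoxL1 and siLoxL2, the groups of slide 2, few genes differed. Of 22 glycolysis genes 2 were called and of 14 other HIF genes 2 were called, and all 4 were higher in siLoxL1. These shares, 9.09% and 14.3%, stand beside 8.82% of all genes (6.12% higher, 2.71% lower). The median log2 difference was -0.01 for glycolysis and 0.01 for the other HIF genes, beside 0.03 over all genes. The groups did not overlap for 5 and 2 genes of the lists, against 20.3% of all genes.

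Hk2, the inducible hexokinase, lay at 4.34, 4.29, 4.29 and 4.20 on siLoxL1 arrays, against 4.04, 3.99, 3.97 and 4.12 on siLoxL2 arrays (0.25 ± 0.05, adjusted p = 0.0248). Slc2a1, the glucose transporter that feeds it, lay at 6.23, 6.14, 6.10 and 6.07 on siLoxL1 arrays, against 5.95, 5.93, 5.92 and 5.95 on siLoxL2 arrays (0.20 ± 0.04, adjusted p = 0.0344). Both genes were higher on every siLoxL1 array, by 1.19-fold and 1.15-fold.

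Ankrd37, a small ankyrin-repeat protein and a frequent marker of HIF activity, lay at 2.70, 2.68, 2.53 and 2.64 on siLoxL1 arrays, against 2.39, 2.49, 2.38 and 2.47 on siLoxL2 arrays (0.20 ± 0.05, adjusted p = 0.049). Kdm3a lay at 3.53, 3.58, 3.55 and 3.48 on siLoxL1 arrays, against 3.37, 3.35, 3.42 and 3.36 on siLoxL2 arrays (0.16 ± 0.04, adjusted p = 0.0406). These groups did not overlap either, and the differences are small beside those across slides.

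Each of these 4 calls was lost under some setting. After quantile normalization, and in the value table of the authors, none of the 4 was called and Pfkp was called lower. Of the 4, the number still called was 0, 0, 1 and 2 without siLoxL1 replicates 1 to 4, and 1, 0, 0 and 1 without siLoxL2 replicates 1 to 4.

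Slc2a3 (-0.22 ± 0.06, adjusted p = 0.0577) and Pfkp (-0.20 ± 0.05, adjusted p = 0.0547) had the lowest values of the glycolysis list and no overlap, but did not pass. Hif1a lay at 3.82, 3.86, 3.90 and 3.96 on siLoxL1 arrays and at 3.95, 3.74, 3.78 and 3.77 on siLoxL2 arrays, with 1 siLoxL2 array inside the siLoxL1 range (0.08 ± 0.06, 95% interval -0.05 to 0.21). Vegfa lay at 3.89, 3.93, 3.85 and 3.93 on siLoxL1 arrays and at 3.98, 3.94, 3.93 and 3.94 on siLoxL2 arrays (-0.05 ± 0.04, 95% interval -0.13 to 0.04).

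Ddit4, an inhibitor of mTOR signalling, was the least reproducible gene of the lists within groups on slide 2. It lay at 4.25, 5.10, 4.39 and 4.93 on siLoxL1 arrays and at 3.99, 5.08, 4.22 and 4.03 on siLoxL2 arrays, so that its difference of 0.33 ± 0.28 could not be resolved. Of the HIF genes outside the lists 1 of 24 was higher and 1 lower (8.33%, beside 8.82% of all genes). The higher one was Angptl4, an inhibitor of lipoprotein lipase (0.32 ± 0.04), and the lower one Loxl4, another lysyl oxidase (-0.34 ± 0.06). Of the 12 other isozymes 1 was higher and 2 were lower (25%), among them Hk3 (-0.58 ± 0.07) and the insulin-responsive transporter Slc2a4 (-0.35 ± 0.05).

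**Figure D3:**
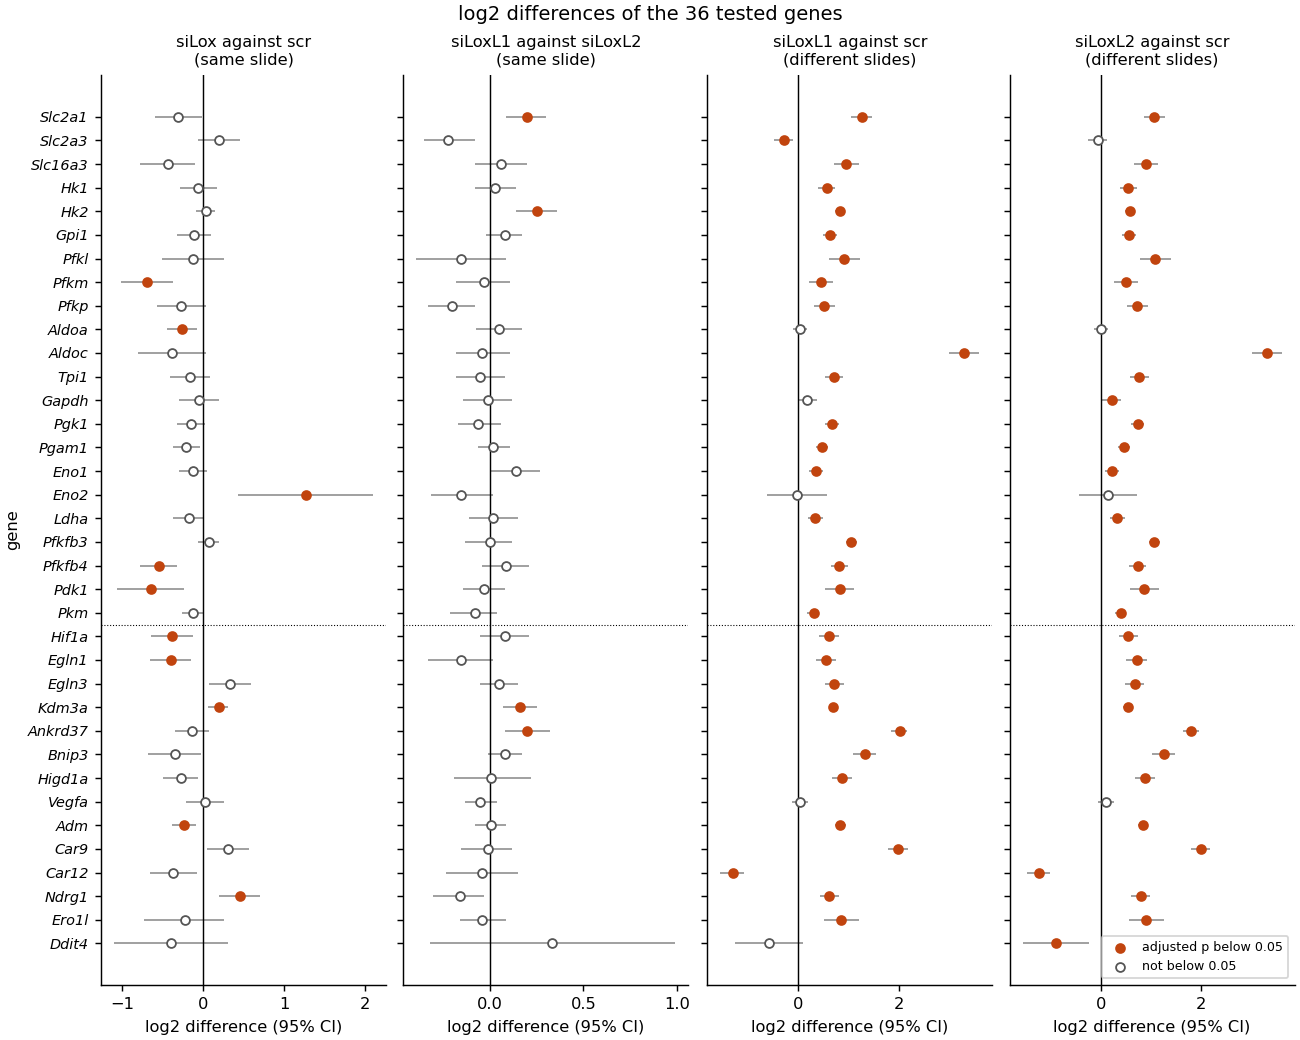
Log2 differences with 95% intervals of the 36 tested genes in the 4 comparisons, glycolysis above and other HIF genes below the dotted line, each panel with its own horizontal scale. Filled points passed an adjusted p of 0.05. Within slides most intervals include or lie near 0, whereas across slides 18 and 19 of the 22 glycolysis genes and 11 of the 14 other HIF genes in each comparison were called higher.

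The comparisons with scr across slides gave far larger differences, and scr is the shared control of both, so that their likeness is not independent evidence. The siRNA and the slide cannot be told apart in them. Of 22 glycolysis genes, 18 were higher and 1 was lower in siLoxL1 than in scr (86.4%, against 65.1% of all genes, 43.3% higher and 21.9% lower). Of 14 other HIF genes 11 were higher and 1 was lower. In siLoxL2 against scr, 19 glycolysis genes were called, all higher, and of the other HIF genes 11 were higher and 2 lower, against 64.8% of all genes (41.4% higher, 23.4% lower). The arrays of siLoxL1 and scr did not overlap for 19 glycolysis genes and 12 other HIF genes, against 58.3% of all genes. Those of siLoxL2 and scr did not overlap for 18 and 12, against 57.3% of all genes.

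The median of all genes was itself shifted, by 0.19 in siLoxL1 and 0.17 in siLoxL2. Glycolysis had medians of 0.60 and 0.57, and the other HIF genes 0.71 and 0.75. Relative to the median of all genes, 29 of 36 genes lay above it and 7 below in siLoxL1 (median 0.46), and 30 above and 6 below in siLoxL2 (median 0.52). After quantile normalization the shift of all genes was 0.08 and 0.07, and the median of the 36 genes was 0.45 and 0.53. The split of calls over all genes depended on the processing. In siLoxL1 it was 9764 higher and 4937 lower here, 7793 and 6254 after quantile normalization, and 8283 and 9829 after normexp. With no filter on dim probes it was 9779 and 12222, at the same scaling but over a larger set of genes. For siLoxL2 it was 9344 higher and 5282 lower here, 7591 and 6515 after quantile normalization, 7891 and 9980 after normexp, and 9354 and 12338 with no filter.

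Aldoc, the brain-type aldolase (probe at chr11:78140198-78140257, mm9), showed the largest difference of all members. It lay at 2.29, 2.30, 2.18 and 2.18 on siLoxL1 arrays and at 2.18, 2.37, 2.19 and 2.36 on siLoxL2 arrays, against -0.79, -1.08, -0.99 and -1.33 on scr arrays. The slides were separated by more than the whole spread within groups, with log2 differences of 3.28 ± 0.14 and 3.32 ± 0.14, and siLoxL1 was 9.74-fold higher. On siLox arrays, hybridised beside scr, it lay at -1.74, -1.52, -1.51 and -0.98. The main aldolase Aldoa did not pass in either comparison (0.04 ± 0.07 and -0.01 ± 0.07).

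Car9, the membrane carbonic anhydrase that acidifies the outside of hypoxic cells, lay at -0.85, -0.94, -0.85 and -1.04 on siLoxL1 arrays and at -0.98, -0.88, -0.93 and -0.83 on siLoxL2 arrays, against -2.67, -2.84, -3.07 and -3.03 on scr arrays. Its log2 differences were 1.98 ± 0.09 and 2.00 ± 0.09. Car12, a related membrane carbonic anhydrase, went the other way: it lay at -1.49, -1.50, -1.81 and -1.46 on siLoxL1 arrays and at -1.62, -1.50, -1.53 and -1.46 on siLoxL2 arrays, against -0.03, -0.28, -0.17 and -0.61 on scr arrays (-1.29 ± 0.11 and -1.25 ± 0.11). No array of slide 2 overlapped the scr arrays in either gene.

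Ankrd37 had the levels on slide 2 given above and lay at 0.75, 0.66, 0.58 and 0.53 on scr arrays (2.01 ± 0.07 in siLoxL1, 1.80 ± 0.07 in siLoxL2). Bnip3, a receptor that marks mitochondria for removal, lay at 7.22, 7.31, 7.31 and 7.28 on siLoxL1 arrays and at 7.17, 7.23, 7.16 and 7.24 on siLoxL2 arrays, against 6.17, 6.02, 5.99 and 5.63 on scr arrays (1.33 ± 0.11 and 1.25 ± 0.11). All 3 probes of Bnip3 were called higher in both comparisons.

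Of the glycolysis genes, Slc2a1 differed from scr by 1.26 ± 0.10 in siLoxL1 and 1.06 ± 0.10 in siLoxL2. Pfkfb3 lay at 4.33, 4.47, 4.29 and 4.40 on siLoxL1 arrays and at 4.30, 4.44, 4.35 and 4.41 on siLoxL2 arrays, against 3.36, 3.32, 3.32 and 3.26 on scr arrays (1.06 ± 0.05 in both). Its less bright probe gave 0.70 and 0.53, also called higher. Pfkl lay at 3.57, 3.71, 3.27 and 3.67 on siLoxL1 arrays and at 3.58, 3.80, 3.65 and 3.81 on siLoxL2 arrays, against 2.97, 2.65, 2.68 and 2.23 on scr arrays (0.92 ± 0.14 and 1.08 ± 0.14). In these 3 genes too every array of slide 2 lay above every scr array.

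**Figure D4:**
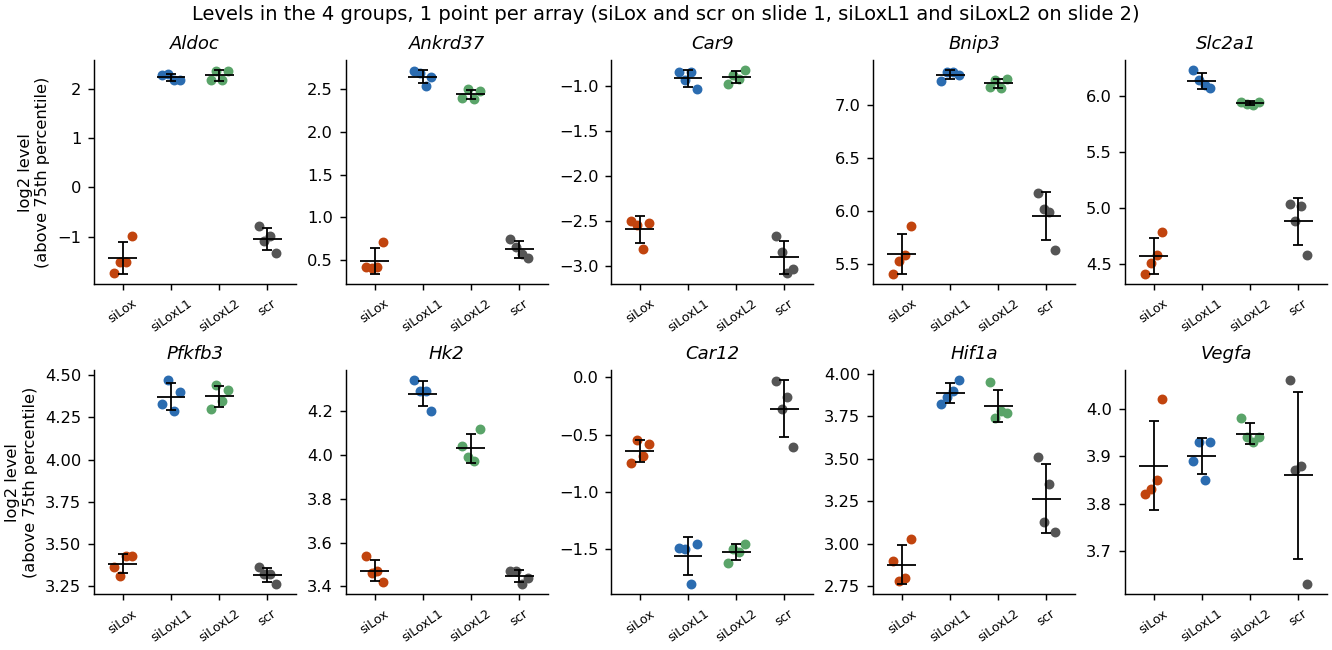
Log2 level above the array's 75th percentile, of 10 genes in the 4 groups, with 1 point per array in replicate order, the mean as a line and the SD as a bar. Each panel has its own vertical scale. siLoxL1 and siLoxL2, on slide 2, lie apart from siLox and scr, on slide 1, in every panel but Vegfa, and Car12 is the panel in which slide 2 lies lower.

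Hif1a lay above its scr arrays on slide 2 by 0.62 ± 0.09 in siLoxL1 and 0.54 ± 0.09 in siLoxL2, and its other probe gave 1.14 and 1.18. Egln1 differed by 0.55 and 0.71, Egln3 by 0.72 and 0.67, and Kdm3a by 0.70 and 0.53. Adm, which fell in siLox, differed by 0.84 in both, and Pdk1 and Pfkfb4, which also fell in siLox, differed by 0.83 and 0.82 in siLoxL1 and by 0.86 and 0.73 in siLoxL2. The lactate exporter Slc16a3 differed by 0.96 and 0.90, and Hk2 by 0.83 and 0.58.

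Among the enzymes between the triose phosphates and lactate, Pgk1, which makes the first ATP of the pathway, differed by 0.67 in siLoxL1 and 0.73 in siLoxL2, Pgam1 by 0.47 and 0.45, Ldha by 0.34 and 0.32, Pkm by 0.31 and 0.39 and Eno1 by 0.35 and 0.21. The 3 probes of Ldha spanned 0.33 to 0.73 in siLoxL1 and 0.32 to 0.85 in siLoxL2, all called higher. Gapdh differed by 0.19 (adjusted p = 0.0586) and 0.21 (adjusted p = 0.0453), and of the 6 probes placed at its locus on chromosome 6, 4 and 6 were called higher. The other 2 probes that carry its name are placed on chromosome 7, and neither was called. After quantile normalization Eno1 was not called in either comparison, and Pkm in siLoxL1 lay at -0.03 and was not called. Gapdh in siLoxL2 also lost its call after quantile normalization, in a fit of 8 arrays, with no filter on dim probes, and without any one of scr replicates 3 and 4 and the 4 siLoxL2 arrays.

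A few members stood outside the pattern. Vegfa did not pass in siLoxL1 (0.04 ± 0.07) or siLoxL2 (0.09 ± 0.07), and its sign turned after quantile normalization, to -0.17 and -0.07. Eno2 did not pass either (-0.01 ± 0.27 and 0.14 ± 0.27). Slc2a3 lay at -1.98, -2.03, -2.12 and -1.99 on siLoxL1 arrays and at -1.69, -1.80, -1.90 and -1.87 on siLoxL2 arrays, against -1.83, -1.55, -1.94 and -1.67 on scr arrays, and was called lower in siLoxL1 (-0.28 ± 0.09, adjusted p = 0.0126) and not in siLoxL2 (-0.07 ± 0.09). Ddit4 was called lower in siLoxL2 (-0.91 ± 0.31, adjusted p = 0.0202), a call that was absent without scr replicate 2, siLoxL2 replicate 1 or siLoxL2 replicate 4.

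The promoters of these genes were searched for the HIF core, ACGTG or GCGTG on either strand, in the 250 bases before the start of transcription. The sequences are RefSeq's, of build GRCm38.p6, and 35 of the 37 genes had 53 distinct windows. The core occurred in 40 of the 53 windows, or 75.5% (26 of 34 for glycolysis, 14 of 19 for the other HIF genes), against 38.6% of all 32851 windows in the table. The core holds a CpG, and the windows of the members were richer in G and C, with a median of 60.4% against 52.4% over all windows. The genes were listed as HIF targets or glycolysis genes, so an excess of the core was favoured by the choice of the lists. Some windows of the same gene overlap, as in Eno1, Aldoa and Pfkm, and a shared match is counted in each. A match is a description of these letters and not of binding. The E-box CACGTG, which other factors bind, contains the core and is counted once.

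The windows of the genes with the largest differences across slides are given 5′ to 3′ with the core in capitals, with Car12, the gene that went the other way, as the last. Aldoc has 2 start sites and both are shown.
Aldoc promoter 1, chr11:78322823-78323072, plus strand: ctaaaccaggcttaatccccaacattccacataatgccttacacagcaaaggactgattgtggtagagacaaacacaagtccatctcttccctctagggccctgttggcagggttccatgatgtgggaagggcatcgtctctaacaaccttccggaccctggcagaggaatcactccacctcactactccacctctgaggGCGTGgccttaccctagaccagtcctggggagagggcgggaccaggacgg
Aldoc promoter 2, chr11:78323948-78324197, plus strand: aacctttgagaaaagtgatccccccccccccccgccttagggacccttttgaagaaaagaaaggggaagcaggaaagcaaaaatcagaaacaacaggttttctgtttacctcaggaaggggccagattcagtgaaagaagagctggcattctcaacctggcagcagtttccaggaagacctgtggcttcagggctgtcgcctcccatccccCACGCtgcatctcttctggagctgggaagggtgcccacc
Car9, chr4:43506776-43507025, plus strand: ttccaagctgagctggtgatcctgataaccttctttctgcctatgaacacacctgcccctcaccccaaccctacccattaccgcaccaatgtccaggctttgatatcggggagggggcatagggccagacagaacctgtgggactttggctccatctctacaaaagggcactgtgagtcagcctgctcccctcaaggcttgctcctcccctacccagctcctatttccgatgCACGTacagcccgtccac
Ankrd37, chr8:45999851-46000100, minus strand: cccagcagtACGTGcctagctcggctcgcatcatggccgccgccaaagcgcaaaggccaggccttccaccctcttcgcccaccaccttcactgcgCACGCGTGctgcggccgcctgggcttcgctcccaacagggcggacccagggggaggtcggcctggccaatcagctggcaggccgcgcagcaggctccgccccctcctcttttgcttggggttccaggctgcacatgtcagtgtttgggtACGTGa
Bnip3, chr7:138909507-138909756, minus strand: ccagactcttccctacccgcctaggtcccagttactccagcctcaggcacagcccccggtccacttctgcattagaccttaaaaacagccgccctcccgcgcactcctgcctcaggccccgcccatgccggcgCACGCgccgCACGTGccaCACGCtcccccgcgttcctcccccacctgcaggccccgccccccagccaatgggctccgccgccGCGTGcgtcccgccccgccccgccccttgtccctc
Slc2a1, chr4:119108495-119108744, plus strand: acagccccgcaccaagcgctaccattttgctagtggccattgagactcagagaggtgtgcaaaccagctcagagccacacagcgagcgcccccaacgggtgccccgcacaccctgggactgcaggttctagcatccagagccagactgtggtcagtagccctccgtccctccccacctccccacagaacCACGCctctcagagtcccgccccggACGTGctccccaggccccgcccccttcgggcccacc
Car12, chr9:66713436-66713685, plus strand: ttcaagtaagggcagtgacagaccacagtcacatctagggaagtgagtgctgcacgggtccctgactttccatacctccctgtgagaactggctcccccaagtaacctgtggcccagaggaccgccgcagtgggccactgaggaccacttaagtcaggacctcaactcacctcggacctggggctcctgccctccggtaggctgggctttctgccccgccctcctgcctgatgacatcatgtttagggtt

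Car9 has its only core match with 13 bases between it and the start site, and the Ankrd37 window holds 3 separate stretches, the nearest with 1 base between. Bnip3 holds 4 stretches, of which 1 is the E-box. Each Aldoc window holds 1 match, with 45 and 34 bases between it and the start, and Slc2a1 holds 2. Of the 35 genes, 4 have no match in any window: Car12, called lower in both comparisons across slides, Eno2, not called in either, and Gpi1 (0.63 and 0.56) and Tpi1 (0.72 and 0.76), called higher in both. Of the Vegfa windows 1 holds 2 matches and the other none.

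Other glucose pathways were read across slides beside the 65.1% of all genes called in siLoxL1 and 64.8% in siLoxL2. Of 11 genes of glycogen metabolism, 8 were higher and 2 lower in siLoxL1 and 7 were higher and 2 lower in siLoxL2 (90.9% and 81.8%), led by Pygl, the liver glycogen phosphorylase (2.33 ± 0.11 and 2.35 ± 0.11), Gyg (1.29 and 1.27) and the glycogen synthase Gys1 (1.22 and 1.30). Of 8 pentose phosphate genes 5 were called in each comparison (62.5%), all higher, with Taldo1 at 1.51 and 1.41. Of 12 other isozymes 9 and 8 were called (75% and 66.7%), all higher, with Eno3 at 1.00 and 1.04. Only 10 of these 12 were well above background on all 4 scr arrays, against 12 on the siLoxL1 and siLoxL2 arrays. A gene that passed the filter through slide 2 alone could hardly be called lower there, so the direction is partly set by the filter.

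The mitochondrial lists stand beside 43.3% of all genes called higher in siLoxL1 and 41.4% in siLoxL2, and beside median differences over all genes of 0.19 and 0.17. Of 19 genes of the tricarboxylic acid cycle 14 were higher and 1 was lower in each comparison (median 0.40 and 0.30), with fumarase, Fh1, at 0.87 and 0.71 and Idh2 at -0.59 and -0.69. Of 12 genes of pyruvate dehydrogenase and its regulators 10 were higher in each (median 0.39 and 0.38), and in siLoxL2 Pdhx was lower (-0.32 ± 0.06).

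Further HIF genes were divided. Of 24 tested, 12 were higher and 8 lower in siLoxL1, and 11 were higher and 9 lower in siLoxL2 (83.3% called in each). The largest were Angptl4 (1.74 ± 0.04 and 1.41 ± 0.04), Bnip3l, a mitophagy receptor related to Bnip3 (1.29 and 1.20), and Tfrc, the transferrin receptor (1.22 and 1.20). Among the lower ones were the coactivators Crebbp (-0.55 and -0.52) and Ep300 (-0.64 and -0.71) and the HIF paralogue Epas1 (-0.22 and -0.18). The lowest log2 difference of the list was -1.19 in siLoxL1, of a gene not named here, and -0.71 in siLoxL2.

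Cell type markers were read across the slides beside the 65.1% of all genes called in siLoxL1 and 64.8% in siLoxL2. Of 7 mesothelial markers 2 were higher and 5 lower in each comparison (100%). Their mean level was 0.10 to 0.38 on siLoxL1 arrays and 0.05 to 0.32 on siLoxL2 arrays, against 0.76 to 0.89 on scr arrays. The endothelial shares were 75% and 87.5%. Of 8 endothelial markers 5 were lower in each, with 1 higher in siLoxL1, Tek, and 2 higher in siLoxL2, Tek and Vwf (mean levels of -3.08 to -2.75 on siLoxL1 arrays, -2.92 to -2.31 on siLoxL2 arrays, -2.12 to -1.98 on scr arrays). Leukocyte markers had mean levels of -0.13 to -0.01 on siLoxL1 arrays and -0.14 to 0.05 on siLoxL2 arrays, within the -0.74 to 0.23 of scr arrays. Of these 13 markers 46.2% and 30.8% were called. Of 9 pericyte and smooth muscle markers 2 were higher and 3 lower in each (55.6%), down to -4.13 and -3.99. Of these 9, 9 were well above background on all scr arrays and 8 in each group of slide 2. Of the 8 endothelial markers it was 7 in scr, 6 in siLoxL1 and 7 in siLoxL2. A marker that passed the filter through slide 1 alone could hardly be called higher on slide 2, so the direction may be partly set by the filter. Of 10 fibroblast markers 5 and 4 were higher and 3 lower in each (80% and 70%). Of 4 tested epithelial markers 1 was higher and 2 lower in each (75%), between -4.24 and 2.33 in siLoxL1 and -4.36 and 2.39 in siLoxL2. The part of cell composition in these differences was not tested, and it, too, cannot be told apart from the slide.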

How the data were processed

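RNA of 16 samples of primary mouse lung fibroblasts was measured on Agilent arrays, 4 per group, with groups and replicates as labelled. Per the file headers, the scanner files hold intensity values per spot, background subtracted and detrended by Agilent Feature Extraction 10.7.3.1, with flags for outlier spots and for signal above background deposited beside them. The authors also deposited a table of log2 values whose sorted columns are nearly equal between arrays, as after quantile normalization (r = 0.997 to 0.999 with the scanner values). Probe positions were read from the scanner files and are in mm9. No annotation of that build was used here, so exon and UTR positions are not given.

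The number of arrays limits the precision. The 75th percentile of log2 intensity was 8.67 to 9.03 on slide 1 and 9.74 to 9.90 on slide 2. Outlier spots were left out, spots of a probe were averaged on the log2 scale and the 75th percentile of the array was subtracted. Probes were kept where some group had all 4 of its arrays well above background (32418 of 55681 probes, 58.2%), and each gene was represented by its brightest probe. Gene names are those of the array annotation on slide 1. The annotation on slide 2 names 3475 probes differently, and Pkm2 was matched to Pkm through a RefSeq synonym.

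Tests used R 4.3.3 and limma 3.58.1 with its functions lmFit, contrasts.fit and eBayes, adjusted by Benjamini-Hochberg over all 22573 genes of a comparison. Within a slide the fit used its 8 arrays, because the spread differed between slides. Simulated data had 200 of 22573 genes changed, with noise independent between genes and arrays. There the fit of siLox against scr recovered 29.9%, 76.1% and 87.9% of genes changed by 0.5, 1 and 2 on the log2 scale. Of its calls 7.86% were false. The fit of siLoxL1 against siLoxL2 recovered 70.1%, 88.1% and 98.5%, with 4.47% false. In the measured data 25.0% and 8.82% of genes were called in these comparisons, so the simulated rates need not hold there. Values on each array are given for up to 6 called genes of each list with the largest difference within slides and up to 3 across slides, and for Hif1a, Vegfa and Slc2a1. Of other lists up to 3 genes are named, and Arnt, Vhl, Crebbp, Ep300, Epas1, Idh2, Pdhx, Tek and Vwf were named after their values were seen. Alternatives were other arrays in the fit, normexp background correction (offset 50), quantile normalization, the value table, other filters on dim probes, the mean of probes, the replicate number as a block and leaving out arrays. The members, the lists and the tests were chosen with earlier results of these data known.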

Additional observations from a re-analysis of the deposited data

Results flagged for a closer look

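In 14 of 144 sets of 4 arrays of 1 gene and 1 group, an array lay apart from the other 3 by more than the critical value of Dixon's gap test. Chance gives about 1 in 20 such sets. On slide 1, Gpi1 on scr replicate 1 was at 7.51, above 7.30 to 7.31 on the other scr arrays. Egln1 on scr replicate 1 was at -0.57, above -0.95 to -0.90. Eno1 on siLox replicate 1 was at 7.51, below 7.71 to 7.74. Ankrd37 and Vegfa on siLox replicate 4 were at 0.72 and 4.02, above 0.41 to 0.42 and 3.82 to 3.85. Car9 on siLox replicate 3 was at -2.81, below -2.54 to -2.50.

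On slide 2, replicate 1 of siLoxL2 was low in 3 genes, with Gpi1 at 7.83 (others 7.93 to 7.95), Eno1 at 7.93 (8.04 to 8.05) and Slc16a3 at 6.25 (6.45 to 6.48). Pdk1 on siLoxL2 replicate 3 was at 1.67, below 1.76 to 1.77. In siLoxL1, Slc16a3 on replicate 2 was at 6.41 (6.49 to 6.50), Pdk1 on replicate 4 at 1.82 (1.67 to 1.68), Car12 on replicate 3 at -1.81 (-1.50 to -1.46) and Adm on replicate 1 at 5.87 (5.93 to 5.94).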

How the results depend on the processing

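In siLox against scr, 5653 genes passed over all genes tested, 5 of glycolysis and 5 of the other HIF genes. A fit of all 16 arrays gave 9715, 11 and 10, no filter on dim probes 2964, 2 and 1, and only probes above background on all 16 arrays gave 8 other HIF genes. Without replicate 4 of both groups, the arrays whose list means crossed, 11 glycolysis genes and 9 other HIF genes passed. Leaving out 1 array at a time gave 1837 to 7805, 2 to 7 and 0 to 7. In siLoxL1 against siLoxL2, 1992, 2 and 2 passed. All 16 arrays gave 908, 1 and 1, no filter 654, 0 and 0, quantile normalization and the deposited log2 values gave 1 glycolysis gene and 0 others each, the mean of probes 1 other HIF gene, and probes above background on all arrays 4 glycolysis genes. Leaving out 1 array at a time gave 612 to 1411, 0 to 2 and 0 to 1. Without replicate 4 of both groups 167 genes and 0 members passed. Across slides the counts of calls in both directions together stayed within 1.5 times under each alternative run, while the lower calls over all genes were 9829 in siLoxL1 and 9980 in siLoxL2 with normexp and 12222 and 12338 with no filter, against 4937 and 5282.

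With the replicate block, 3 genes passed in siLox against scr and 852 in siLoxL1 against siLoxL2, with 0 members in each. The replicate numbers do not establish a pairing: deviations of arrays with the same number correlated at -0.19 to 0.00 on slide 1 and at 0.04 to 0.22 on slide 2, where every array correlated best with its own number. Arrays with the same number also share a column of the slide, and the number and the column cannot be told apart. The block lost no member's call across slides.

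Vegfa, never called, changed sign. In siLox against scr it was -0.06 without scr replicate 4, -0.03 without siLox replicate 4, at most 0.09 without any other array and -0.10 without both replicates 4. In siLoxL1 against siLoxL2 it was 0.04 by the mean of probes. Against scr it was -0.17 and -0.18 in siLoxL1 with quantile normalization and the value table, -0.04 to 0.11 without 1 array, -0.05 without replicate 4 of both, and in siLoxL2 -0.07 with both scalings. The causes were not tested. In simulated data with 200 changed genes and independent noise, 29.9% of log2 changes of 0.5 were recovered on slide 1 and 70.1% on slide 2, with 8 arrays each. These rates need not hold in the measured data. The median SD within groups was 0.163 on slide 1 and 0.0968 on slide 2.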
